A study of Mus musculus with 4 samples.

Results

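The genes described here are 10 marrow stromal, adipocyte and extracellular matrix genes, taken by name from the 28987 genes of an RNA sequencing table of c-Kit-positive mouse bone marrow cells. They are the receptors Lepr, Pdgfra and Pdgfrb, the secreted signals Kitl and Adipoq, and the matrix genes Sparc, Fn1, Col1a1, Col1a2 and Col3a1. The table holds 4 libraries from C57BL/6 mice. All 4 carry a partial tandem duplication of 1 allele of Mll (MllPTD/WT), 2 floxed Runx1 alleles and the Mx1-Cre transgene. The titles of all 4 label them Runx1-null. In 2 libraries, called Hif1a-intact here, Hif1a was not floxed. In the other 2, Hif1a-null by their titles, both Hif1a alleles were floxed as well. Mx1-Cre is a recombinase under an interferon-inducible promoter, known to act in blood cells and also in some non-blood cells of the marrow. The labels give no age, and nothing in them ties a library to a mouse of its own. The p-values below therefore measure only how far these samples spread, and that spread may be technical.

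The marrow niche is the set of non-blood cells that house blood stem cells. Perivascular stromal cells that carry the leptin receptor make the stem cell cytokines Kitl and Cxcl12 and can give rise to bone and fat cells, while osteoblasts and fibroblasts secrete the fibrillar collagens. Several matrix genes are also made by blood cells: megakaryocytes carry Sparc and Fn1 in their granules, and macrophages make Fn1. c-Kit (CD117) is the receptor for Kitl, and cells carrying it were enriched on magnetic beads, a step that leaves some other marrow cells in the sample. The comparison therefore asks both how these genes stood in each genotype and which marrow cell markers stood with them.

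Values are TPM, each gene's length-scaled share of all transcripts. Read depth cannot be had from such values and is unknown here. The number of genes at 1 TPM or more ran from 11164 to 11833 per library. Hif1a itself did not separate the groups (100, 75.2, 98.8 and 113 TPM in Hif1a-intact replicates 1 and 2 and Hif1a-null replicates 1 and 2; limma, adjusted p = 0.479). A gene-level value includes exons outside the floxed part and does not check the deletion, so every direction below rests on the labels. Runx1, floxed in both groups and null by the titles, read 73.6 and 76.6 against 48.4 and 46.7 TPM (limma, adjusted p = 0.0636). Runx1 level and Hif1a status therefore cannot be told apart as factors in any result below. Progenitor genes were abundant, with Kit at 102 to 128 TPM and Spi1, a myeloid transcription factor, at 130 to 156 TPM. Ptprc, which encodes the leukocyte antigen CD45, was nevertheless listed at 1.24, 2.42, 1.47 and 1.98 TPM. A low listed level in this table is therefore given as listed and is not read as absence.

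All 10 genes were above 0 in every library, and 9 stayed under 10 TPM in every library. Sparc, the highest, made up between 43.4% and 64.8% of their summed level. That sum was 20.7 and 16.9 TPM in the Hif1a-intact pair and 40.2 and 50.5 TPM in the Hif1a-null pair. In 8 of the 10 genes both Hif1a-null libraries lay above both Hif1a-intact libraries, Pdgfrb lay below, and Pdgfra overlapped. Of all 20081 genes above 0 in any library, 23.6% lay above in this way and 23.1% below. In a bulk sample, a change in the number of cells of a type cannot be told apart from a change in RNA per cell.

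**Figure D1:**
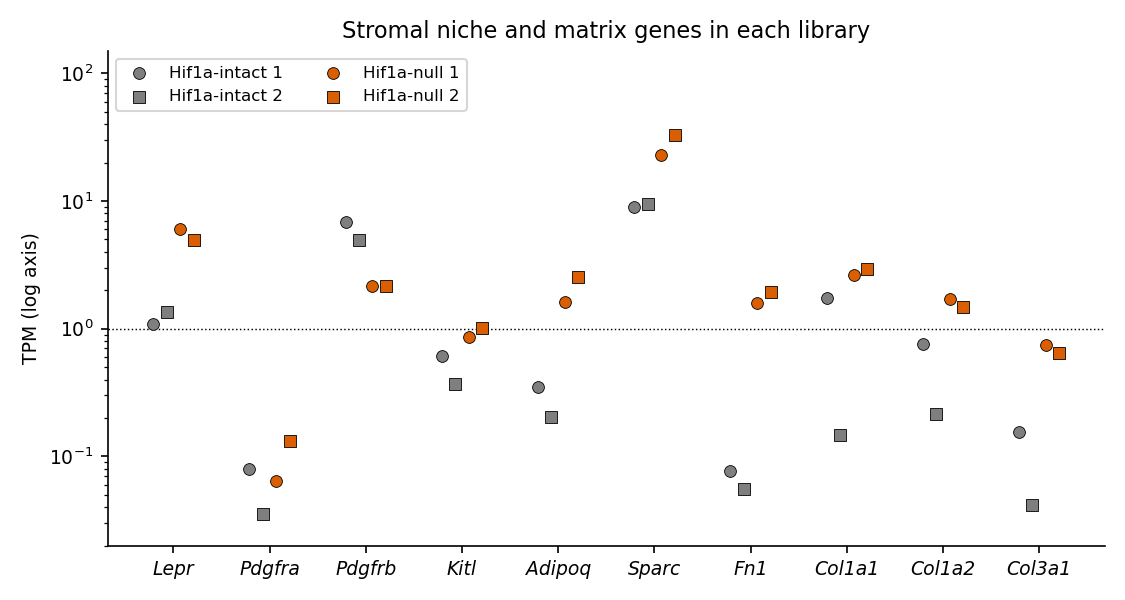
TPM (log axis) of the 10 stromal niche and matrix genes in each of the 4 libraries, grey for Hif1a-intact and orange for Hif1a-null, circles for replicate 1 and squares for replicate 2; the dotted line marks 1 TPM. Sparc is the highest gene in every library, Pdgfrb is the gene with both orange points below both grey points, and the type I collagen genes have 1 grey point far below the other.

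The limma test on log2(TPM + 1) was limited to genes that reached 1 TPM in 2 or more libraries, which 7 of the 10 did. At an adjusted p under 0.05, Lepr, Sparc, Adipoq and Fn1 were higher in the Hif1a-null libraries, against 5.25% of all 11909 genes tested. Pdgfrb was lower, against 2.02% of all genes tested. Col1a1 and Col1a2 did not pass the test, and Pdgfra, Col3a1 and Kitl were too low to enter it. Over all genes tested, the median log2 fold change was -0.06. Adipoq, Fn1 and Col1a2 did not reach 1 TPM in either Hif1a-intact library and entered the test only because both Hif1a-null libraries were higher. Of the 536 genes that entered in that way, 61.8% were called higher, so the calls of Adipoq and Fn1 are read against that share. Of the 11373 genes with a Hif1a-intact library at 1 TPM or more, 2.59% were called higher, the share that applies to Lepr and Sparc. The marker lists below are read against the same 2 shares.

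Lepr encodes the receptor for leptin, the hormone of fat cells, and marks perivascular stromal cells of the adult marrow. Lepr (ENSMUSG00000057722, GRCm38 chromosome 4, 101717404 to 101815352, plus strand) read 1.09 and 1.36 TPM in the Hif1a-intact pair and 6.06 and 4.95 TPM in the Hif1a-null pair. The gap between the groups was larger than the spread within either pair, and the ratio of the mean TPM was 4.49 (1.23 ± 0.188 against 5.51 ± 0.785 TPM, SD, n = 2 each). The log2 fold change was 1.54 (standard error 0.16, limma, adjusted p = 0.0169). Leprot, a neighbouring gene on the same strand that ends 58040 bases before Lepr starts, read 26.2, 27.7, 33.0 and 32.6 TPM. Its log2 fold change, 0.28, missed the threshold (limma, adjusted p = 0.290). Leprot was 23.9 and 20.4 times as high as Lepr in the Hif1a-intact pair and 5.45 and 6.59 times as high in the Hif1a-null libraries. Leptin itself (Lep) was listed at 0 in every library.

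The 5′ flanks of Lepr and Adipoq are shown because these 2 of the called genes have a RefSeq promoter entry whose upstream bases hold at most a few bases of annotated exon, which were trimmed. The letters are from RefSeq on GRCm38.p6, on the plus strand, ending 1 base before the annotated start. Capitals mark matches, on either strand, to ACGTG or GCGTG, the core of the hypoxia response element bound by HIF-1.
Lepr, chr4:101717157-101717403: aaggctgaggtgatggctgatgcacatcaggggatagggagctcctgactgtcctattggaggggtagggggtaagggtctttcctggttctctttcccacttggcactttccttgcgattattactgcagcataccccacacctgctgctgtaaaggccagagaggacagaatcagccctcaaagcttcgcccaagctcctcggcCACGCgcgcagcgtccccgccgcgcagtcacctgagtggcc
Adipoq, chr16:23146286-23146535: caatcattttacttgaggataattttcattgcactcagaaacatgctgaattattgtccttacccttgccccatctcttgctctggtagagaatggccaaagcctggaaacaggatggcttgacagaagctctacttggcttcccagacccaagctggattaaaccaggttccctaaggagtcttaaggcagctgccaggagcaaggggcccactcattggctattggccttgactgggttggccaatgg
The Lepr flank of 247 bases is 58.7% G and C and holds 1 GCGTG match, on the opposite strand. The Adipoq flank of 250 bases is 48.8% G and C and holds no match, which says only that these letters are not in that window. Of 32851 promoters in the table, 16.6% hold ACGTG and 28.2% hold GCGTG in the 250 bases before the start, and 38.6% hold at least 1 of them. Of the 10 genes, 7 have an entry. Among these, Kitl also holds 1 GCGTG and Col1a2 holds 2 ACGTG, while Sparc, Col3a1 and Pdgfra hold neither. The windows of Kitl, Col1a2 and Sparc overlap annotated exons of the same gene, so they are not wholly upstream of it. Another Lepr start site, whose window also overlaps a Lepr exon, holds 0 matches. The RUNX motif TGTGGT, found in 14% of promoters, was in none of the 7 genes' windows. A palindromic CACGTG would count on both strands. Such a match is a description of the letters and not a binding site.

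The platelet-derived growth factor receptors are tyrosine kinases of mesenchymal cells, Pdgfra of fibroblast and adipocyte precursors and Pdgfrb of pericytes. Pdgfrb (ENSMUSG00000024620, chromosome 18, 61045150 to 61085061, plus strand) read 6.89 and 4.99 TPM in the Hif1a-intact pair and 2.14 and 2.16 TPM in the Hif1a-null pair. It was thus the 1 gene of the 10 with both Hif1a-null libraries below (5.94 ± 1.34 against 2.15 ± 0.0132 TPM, SD, n = 2 each), with a log2 fold change of -1.13 and a standard error of 0.18 (limma, adjusted p = 0.0441). Pdgfra (ENSMUSG00000029231, chromosome 5, 75152292 to 75198215, plus strand) read 0.0798, 0.0352, 0.0639 and 0.131 TPM, with overlapping groups and no library near 1 TPM. In each library Pdgfrb was therefore the higher of the pair, by 86.3 and 142 times in the Hif1a-intact and 33.5 and 16.4 times in the Hif1a-null libraries.

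Pericyte and smooth muscle markers, which share cells with Pdgfrb in vessel walls, were low throughout. Of 11 markers 9 were under 1 TPM in every library, and Cnn1, a smooth muscle calponin, was listed at 0 in all. The proteoglycan gene Cspg4 and the contractile genes Myh11 and Des did not exceed 0.04 TPM. The summed level of the 11 was 3.21 and 3.06 TPM in the Hif1a-intact pair and 5.21 and 4.64 TPM in the Hif1a-null pair, the opposite order to Pdgfrb. In the Hif1a-intact libraries Pdgfrb alone thus exceeded the sum of all 11. Of the 11, 6 lay higher in the Hif1a-null pair without overlap and 1 lower, against 23.6% and 23.1% of all genes above 0. The lower gene was Rgs5, at 0.911 and 0.962 against 0.871 and 0.674 TPM, the same order as Pdgfrb. The 1 tested marker, the actin-binding Tagln, was not called (limma, adjusted p = 0.465); 0 of the list had an unadjusted p under 0.05, and 0 were called with an intensity trend in limma. The PDGF ligand genes stayed low as well, with Pdgfa at 1.25 to 2.82 TPM, Pdgfb at 0.421 to 1.05 TPM and Pdgfc and Pdgfd under 0.2 TPM.

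Kitl encodes stem cell factor, the niche signal that binds c-Kit. Kitl (ENSMUSG00000019966, chromosome 10, 100015630 to 100100416, plus strand) read 0.608 and 0.369 TPM in the Hif1a-intact pair and 0.854 and 1.01 TPM in the Hif1a-null pair. The groups did not overlap, but the gene was too low for the test; without the filter its log2 fold change was 0.38 (limma, adjusted p = 0.233). Its receptor Kit read 128, 126, 121 and 102 TPM and did not pass (limma, adjusted p = 0.517). Kit was thus between 101 and 341 times as high as Kitl within a library, the receptor being the gene product on which the cells were selected.

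Adipoq encodes adiponectin, a fat cell hormone that is also made by marrow stromal cells committed to the fat lineage. Adipoq (ENSMUSG00000022878, chromosome 16, 23146536 to 23158028, plus strand) read 0.351 and 0.205 TPM in the Hif1a-intact pair and 1.62 and 2.53 TPM in the Hif1a-null pair. Both Hif1a-null libraries were higher (0.278 ± 0.103 against 2.07 ± 0.640 TPM, SD, n = 2 each), with a log2 fold change of 1.25 and a standard error of 0.20 (limma, adjusted p = 0.0422). The call was lost when either Hif1a-intact library was left out (limma, adjusted p = 0.0726 without replicate 1 and 0.0950 without replicate 2; 0.0246 to 0.128 over its 11 alternatives). The adiponectin receptor genes Adipor1 and Adipor2 read 55.2 to 74.9 TPM and 61.8 to 99.3 TPM and were not called (limma, adjusted p = 0.762 and 0.127).

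Among 11 further adipocyte markers, 2 of the 3 tested were higher and none lower, with 8 under 1 TPM in every library. Both higher genes had Hif1a-intact libraries above 1 TPM, where 2.59% of all genes were called higher. Fabp4, a fatty acid carrier, read 4.02 and 2.999 against 9.68 and 11.01 TPM (log2 fold change 1.34, limma, adjusted p = 0.0283). Lpl, lipoprotein lipase, read 2.72 and 2.05 against 5.33 and 5.69 TPM (log2 fold change 0.95, limma, adjusted p = 0.0470). Lpl was called in 5 of its 14 alternatives and Fabp4 in 9. Both genes are also expressed by macrophages, and Fabp4 by endothelium. Pparg, the fat cell transcription factor, entered the test only through the Hif1a-null libraries and was not called, at 0.114 and 0.481 against 1.23 and 1.38 TPM (limma, adjusted p = 0.0913). Of the genes that define mature fat cells, the lipid droplet coat gene Plin1 and Lep were listed at 0 in all 4 libraries, Plin4 did not exceed 0.04 TPM, and Cidec was at 0 in the Hif1a-intact pair, against 0.656 and 0.0794 TPM in the Hif1a-null pair. Adipoq was thus detected in every library while Plin1 was listed at 0 in each.

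Sparc encodes osteonectin, a secreted collagen-binding glycoprotein of bone that platelets also store. Sparc (ENSMUSG00000018593, chromosome 11, 55394500 to 55423183, minus strand) read 8.99 and 9.51 TPM in the Hif1a-intact pair and 22.8 and 32.7 TPM in the Hif1a-null pair. Both Hif1a-null libraries were higher, and they differed from each other by more than the Hif1a-intact pair did (9.25 ± 0.365 against 27.8 ± 7.03 TPM, SD, n = 2 each). The log2 fold change was 1.47 (standard error 0.21, limma, adjusted p = 0.0350). The call was lost with any 1 library left out, at a limma adjusted p of 0.0787 and 0.0847 without Hif1a-intact replicate 1 and 2 and of 0.144 and 0.296 without Hif1a-null replicate 1 and 2 (0.0216 to 0.296 over its 14 alternatives). Sparc was 5.20 and 65.0 times as high as Col1a1 in the Hif1a-intact pair and 8.62 and 11.1 times as high in the Hif1a-null libraries.

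Of 17 megakaryocyte and platelet markers, 15 were tested, 9 were higher, 0 lower, and 6 were not called. Of the 5 that entered the test only through the Hif1a-null libraries 4 were higher, against 61.8% of all genes that entered so, and of the other 10, 5 were higher, against 2.59%. Thbs1, a platelet granule adhesion protein, read 2.59 and 2.79 against 47.6 and 47.2 TPM (log2 fold change 3.71, limma, adjusted p = 0.00349). The platelet chemokine genes Ppbp and Pf4 read 3.55 and 5.46 against 64.2 and 74.9 TPM and 0.848 and 1.59 against 6.30 and 11.04 TPM. Gp5, a platelet receptor subunit, read 1.39 and 1.27 against 7.35 and 7.54 TPM. Not all of the list lay higher. Itgb3, the beta 3 subunit of the platelet integrin, lay lower without overlap, at 15.4 and 13.4 against 9.30 and 10.2 TPM (log2 fold change -0.52, limma, adjusted p = 0.138). Vwf, von Willebrand factor, had overlapping groups at 6.33 and 10.3 against 10.3 and 7.89 TPM. The summed level of the 17 was 69.1 and 61.5 TPM in the Hif1a-intact pair and 218 and 236 TPM in the Hif1a-null pair, with none at 0 in all 4. The part of megakaryocyte RNA in the Sparc result was not tested.

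Fn1 encodes fibronectin, a matrix glycoprotein that cells bind through integrins. Fn1 (ENSMUSG00000026193, chromosome 1, 71585520 to 71653200, minus strand) had the highest ratio of group means of the 10 genes. It read 0.0772 and 0.0551 TPM in the Hif1a-intact pair and 1.60 and 1.94 TPM in the Hif1a-null pair, with each group close together (0.0662 ± 0.0156 against 1.77 ± 0.245 TPM, SD, n = 2 each). The ratio of means was 26.7, against low Hif1a-intact levels. The log2 fold change was 1.37 (standard error 0.14) on the log2(TPM + 1) scale (limma, adjusted p = 0.0154), and 3.49 with a pseudocount of 0.1. Of its 11 alternatives 10 left it past the threshold, the exception being a pseudocount of 5 (limma, adjusted p = 0.0915). The 11 do not include the fits without a Hif1a-null library, where Fn1 fell under the filter. An antisense gene, Apol7d, overlaps Fn1 exons on the other strand. The strand setting of the quantification is not known here.

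The fibronectin receptor subunits were much higher than Fn1 and were not called. Itga4 read 44.5 to 52.5 TPM, Itga5 6.02 to 9.13 TPM and Itgb1 93.2 to 139 TPM (limma, adjusted p = 0.952, 0.389 and 0.243). Monocyte and macrophage markers, from cells that can make Fn1, moved in both directions. Of 18, 14 were tested, 2 were higher and 2 lower, against 5.25% and 2.02% of all tested genes. Of the 3 that entered only through the Hif1a-null libraries 1 was higher, against 61.8% of such genes. Of the other 11, 1 was higher, against 2.59%, and 2 were lower. In 11 of the 18 the Hif1a-null libraries lay higher without overlap, and in 4 lower, against 23.6% and 23.1% of all genes above 0. The mannose receptor gene Mrc1 read 0.405 and 0.396 against 3.82 and 3.26 TPM, having entered the test only through the Hif1a-null libraries, and the chemokine receptor gene Ccr2 11.3 and 8.48 against 50.7 and 49.9 TPM. Adgre1 (F4/80) fell from 34.5 and 26.7 to 10.1 and 9.72 TPM, and Cd68, a lysosomal macrophage protein, from 21.6 and 17.2 to 9.07 and 8.36 TPM. Their summed level was 584 and 547 TPM in the Hif1a-intact and 503 and 521 TPM in the Hif1a-null pair. The lower sum came from F13a1, a clotting factor subunit, at 375 and 354 against 264 and 279 TPM, and the other 17 summed to 209 and 194 against 239 and 242 TPM. The part of either cell type in the Fn1 result was not tested.

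**Figure D2:**
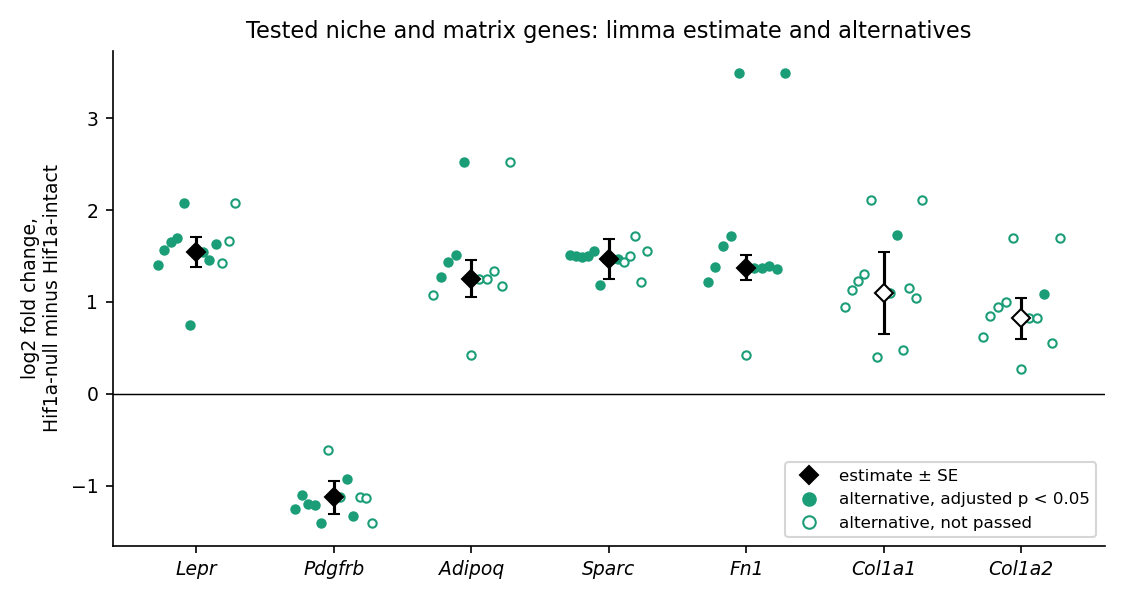
Log2 fold change (vertical axis, Hif1a-null minus Hif1a-intact) of the 7 tested genes, as black diamonds with standard error bars on the log2(TPM + 1) scale (white diamonds did not pass), and under each alternative setting as small circles, filled where limma's adjusted p was under 0.05. No circle lies across 0 from its diamond, which the non-overlapping groups fix in advance for most settings. Pseudocounts of 0.1 and 5 set the outer circles of Fn1 at 3.49 and 0.42.

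Col1a1 and Col1a2 encode the chains of type I collagen, the main fibre of bone, and Col3a1 the chain of type III collagen of softer tissue. Col1a1 (ENSMUSG00000001506, chromosome 11, 94936224 to 94953042, plus strand) read 1.73 and 0.146 TPM in the Hif1a-intact pair and 2.64 and 2.94 TPM in the Hif1a-null pair. The Hif1a-null pair was higher and close together, while the Hif1a-intact pair differed 11.8-fold. The log2 fold change of 1.10 therefore had a standard error of 0.45 and did not pass (limma, adjusted p = 0.252). Without Hif1a-intact replicate 1 it was 1.72 and passed (limma, adjusted p = 0.0285), and without Hif1a-intact replicate 2 it was 0.47 and did not (limma, adjusted p = 0.118).

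Col1a2 (ENSMUSG00000029661, chromosome 6, 4504814 to 4541544, plus strand) showed the same order, with 0.762 and 0.215 against 1.70 and 1.48 TPM. Its log2 fold change of 0.82 missed the threshold (limma, adjusted p = 0.133), and passed without Hif1a-intact replicate 1 (1.09, limma, adjusted p = 0.0435; adjusted p = 0.0435 to 0.289 over its 11 alternatives). Col3a1 (ENSMUSG00000026043, chromosome 1, 45311538 to 45349706, plus strand) read 0.156 and 0.0417 against 0.747 and 0.650 TPM and stayed under the filter; without the filter its log2 fold change was 0.63, which missed the threshold (limma, adjusted p = 0.0815). For each of the 3 collagen genes, Hif1a-intact replicate 2 was the lowest library and replicate 1 the next. Col1a1 was 2.27 and 0.680 times as high as Col1a2 in the Hif1a-intact pair and 1.56 and 1.99 times as high in the Hif1a-null libraries.

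Of 26 further fibroblast and basement membrane genes, 19 were under 1 TPM in every library, 6 were tested, 2 were higher and 0 lower. Of the 3 that entered only through the Hif1a-null libraries, 1 was higher, against 61.8% of such genes, and of the other 3, 1 was higher, against 2.59%. Col5a1, a chain of the type V collagen that sits inside type I fibres, read 0.291 and 0.0919 TPM in the Hif1a-intact pair and 5.67 and 6.63 TPM in the Hif1a-null pair (log2 fold change 2.59, limma, adjusted p = 0.00700). Of the 2 called genes, it is the one that entered only through the Hif1a-null libraries. It was thus higher than Col1a1 in both Hif1a-null libraries and lower than it in both Hif1a-intact libraries. Its partner chain gene Col5a2 read 0.0696, 0.0203, 0.203 and 0.134 TPM, so that Col5a1 was 4.18 and 4.53 times as high as Col5a2 in the Hif1a-intact and 27.9 and 49.6 times as high in the Hif1a-null libraries. Bgn, the proteoglycan biglycan, read 5.10 and 4.18 against 12.2 and 11.9 TPM (log2 fold change 1.22, limma, adjusted p = 0.0238). Fstl1, a secreted glycoprotein, read 8.88, 16.2, 12.5 and 11.9 TPM with no call (limma, adjusted p = 0.986). The fibroblast proteoglycan gene Lum and the microfibril gene Mfap5 were listed at 0 in all 4 libraries, and Dcn (decorin) read 0.449, 0.0701, 0.910 and 0.733 TPM.

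The enzymes that modify and fold collagen were not called. Of 20 such genes 7 were tested and 0 were called by limma, also with 0 called with an intensity trend, while 4 had an unadjusted p under 0.05. The median log2 fold change of the 7 was -0.60. Over all 20, the Hif1a-null libraries lay higher without overlap in 6 and lower in 6, against 23.6% and 23.1% of all genes above 0. The 6 higher genes were all too low for the test, among them the cross-linking enzyme gene Lox (0.0788 and 0.148 against 0.653 and 0.399 TPM). P4hb, the beta subunit of prolyl 4-hydroxylase and a general folding enzyme, read 831 and 961 against 551 and 562 TPM (limma, adjusted p = 0.0758). Plod3, a lysyl hydroxylase, read 87.5 and 131 against 63.4 and 57.2 TPM, and Crtap, of the prolyl 3-hydroxylase complex, 58.4 and 114 against 46.2 and 59.6 TPM. Without Hif1a-intact replicate 1, Plod3 was called, lower (limma, adjusted p = 0.0444). Serpinh1, the collagen-specific chaperone, stayed under 1 TPM in every library (0.419, 0.054, 0.543 and 0.451 TPM).

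Among 17 matrix proteases and inhibitors 11 were tested, 3 were higher and 0 lower. Of the 9 of these with a Hif1a-intact library at 1 TPM or more, 2 were higher, against 2.59% of all such genes. Mmp8 and Mmp9, collagenase and gelatinase of neutrophil granules, read 4.06 and 3.11 against 29.1 and 30.5 TPM and 60.2 and 52.9 against 195 and 216 TPM. Both are also among the 11 neutrophil markers, of which 7 were higher and 0 lower. All 11 had a Hif1a-intact library at 1 TPM or more, where 2.59% of all genes were called higher. Elane and Ctsg, the most abundant of the 17 and also neutrophil markers, had overlapping groups. Elane read 2010 and 1518 against 1914 and 1848 TPM (limma, adjusted p = 0.790). Ctsg read 259 and 156 against 161 and 154 TPM (limma, adjusted p = 0.531). Camp, the most abundant neutrophil marker, overlapped too (limma, adjusted p = 0.662). Mmp14, a membrane-bound protease of stromal and myeloid cells, read 0.387 and 0.655 against 2.97 and 2.40 TPM (log2 fold change 1.28, limma, adjusted p = 0.0284). It entered the test only through the Hif1a-null libraries, and 61.8% of the genes that did so were called higher. Mmp2, the gelatinase typical of fibroblasts, read 1.19, 0.748, 0.675 and 0.757 TPM, and Mmp3 and Timp4 were listed at 0 in every library.

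Of 21 receptors and ligands that pair with the 10 genes, 14 were tested and 1 was called, lower, against 2.02% of all tested genes. Itga1, the collagen-binding integrin alpha 1, read 10.4 and 9.69 against 3.44 and 3.60 TPM (log2 fold change -1.29, limma, adjusted p = 0.0153). The other collagen receptor genes Itga2, Ddr1 and Ddr2 were under 1 TPM in every library. Cd44, which binds hyaluronan and collagen, read 75.4, 92.4, 83.3 and 82.5 TPM (limma, adjusted p = 0.979).

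Markers of the other niche cells gave a mixed picture. Of 14 genes of leptin receptor-positive stroma, 10 were under 1 TPM in every library, including the transcription factor genes Foxc1 (0.0944, 0.0369, 0.0536 and 0.132 TPM) and Ebf3 (0.178, 0.108, 0.266 and 0.293 TPM). Of the 4 tested, 0 were called by limma and 0 with an intensity trend, with 2 at an unadjusted p under 0.05. Cxcl12, the chemokine that retains stem cells in the niche, read 10.3 and 5.84 against 21.1 and 21.5 TPM (log2 fold change 1.34, limma, adjusted p = 0.0765). It was called in 2 of its 14 alternatives, those that left out Hif1a-intact replicate 1 or replicate 2 (adjusted p = 0.0245 to 0.464 over all). Vcam1, an adhesion molecule of stroma and marrow macrophages, read 54.9, 80.0, 65.3 and 69.7 TPM, and Angpt1, a ligand that stem cells also make, 14.8, 7.75, 10.4 and 10.5 TPM; neither was called (limma, adjusted p = 0.963 and 0.960). The summed level of the 14 was 82.5 and 95.6 TPM against 100 and 105 TPM, most of it Vcam1.

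Of 11 osteoblast genes 3 were tested and 1, Spp1, was higher (3.92 and 3.37 against 7.502 and 9.28 TPM, log2 fold change 1.01, limma, adjusted p = 0.0441). It had Hif1a-intact libraries above 1 TPM, where 2.59% of all genes were called higher. Spp1 encodes osteopontin, which macrophages make as well. Its call was lost with any 1 library left out (adjusted p = 0.0324 to 0.496 over its 14 alternatives). Runx2, a bone transcription factor that plasmacytoid dendritic cells also carry, read 29.2, 38.6, 25.4 and 25.01 TPM (limma, adjusted p = 0.287). Of the genes that define osteoblasts, Bglap2 was listed at 0 in all 4 libraries, Sp7 was listed at 0 in 3 and read 0.161 TPM in Hif1a-null replicate 1, and Bglap read 0.392 TPM and 0 in the Hif1a-intact pair and 1.27 and 1.88 TPM in the Hif1a-null pair. Alpl, alkaline phosphatase, stood apart in Hif1a-intact replicate 2 at 7.87 TPM, against 0.125, 0.0717 and 0.666 TPM in the others.

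Of 14 endothelial genes, 7 were tested, 3 were higher, 1 lower and 3 not called. In 12 of the 14 the Hif1a-null libraries lay above without overlap, against 23.6% of all genes. Egfl7, a secreted vessel protein also made by progenitors, read 8.91 and 5.48 against 36.2 and 32.02 TPM (log2 fold change 2.13, limma, adjusted p = 0.0224). Plvap, of endothelial fenestrae, read 1.13 and 1.14 against 3.76 and 3.88 TPM, and the guidance receptor gene Robo4, which stem cells share, 0.128 and 0.136 against 1.53 and 1.498 TPM. Robo4 was 1 of 3 that entered only through the Hif1a-null libraries and the 1 of them called, against 61.8% of such genes. Of the other 4, 2 were higher, against 2.59%. Cdh5, the endothelial cadherin, read 0.599 and 0.627 against 1.66 and 1.61 TPM (limma, adjusted p = 0.0509). Pecam1, which leukocytes and platelets carry too, fell from 32.5 and 32.2 to 15.9 and 16.02 TPM (limma, adjusted p = 0.0254). The summed level of the 14 was 48.4 and 42.3 against 69.3 and 64.1 TPM. By group means Egfl7 alone rose by more (7.20 to 34.1 TPM) than the sum did (45.4 to 66.7 TPM). The rest of the list therefore did not rise as a sum with Pecam1 included, which fell from 32.3 to 15.9 TPM by group means. Each remaining gene of the list had a higher mean in the Hif1a-null pair, so without Pecam1 the rest rose as well. The part of endothelial RNA in the results for Sparc, Fn1 and the collagens was not tested.

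**Figure D3:**
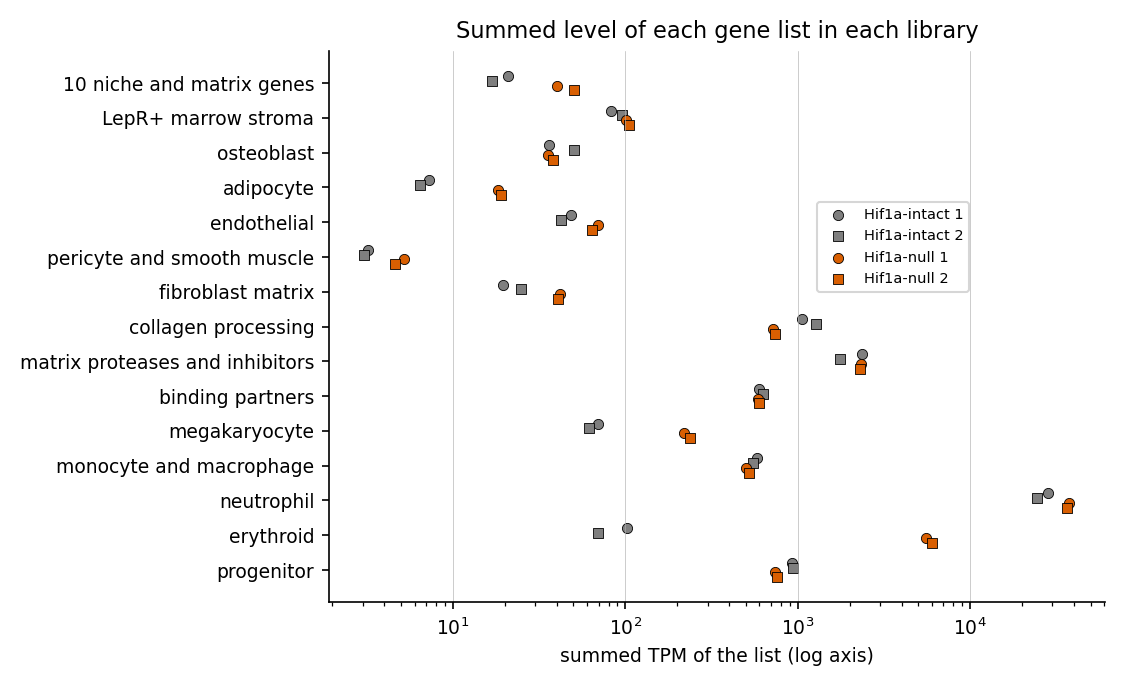
Summed TPM (horizontal log axis) of each gene list in each library, grey for Hif1a-intact and orange for Hif1a-null. The 10 niche and matrix genes sum to 16.9 to 50.5 TPM, under the sums for megakaryocyte genes (61.5 to 236 TPM) and far under those for neutrophil genes.

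Over the 6 lists of stromal, bone, fat, vessel, mural and matrix genes together, 55 of 87 genes were under 1 TPM in every library and 6 were listed at 0 in all. Of the 24 tested, 10 of them only through the Hif1a-null libraries, 8 were higher, 1 lower and 15 not called. Of the 10, 2 were higher, against 61.8% of all genes that entered so. Of the other 14, 6 were higher, against 2.59%. Of the 87, 52 lay higher in both Hif1a-null libraries without overlap and 5 lower, against 23.6% and 23.1% of all genes above 0. Within the Hif1a-intact pair, 51 of the 77 above 0 were higher in replicate 1 and 26 in replicate 2, or 66.2% in replicate 1, where 59% of all genes were. Within the Hif1a-null pair 44 of 80 were higher in replicate 1 and 36 in replicate 2. Blood lineage markers moved too, and all 8 erythroid genes were called higher. The 2 of them tested only through the Hif1a-null libraries are read against 61.8%, and the other 6 against 2.59%. The globin gene Hbb-bs went from 93.8 and 64.6 to 5190 and 5604 TPM. Of 8 progenitor genes 0 were called (limma, 2 at an unadjusted p under 0.05, 0 with an intensity trend). Of these 8, 3 lay lower without overlap and 1 higher, against 23.1% and 23.6% of all genes above 0. The part of these blood lineages in the results for the 10 genes was not tested.

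**Figure D4:**
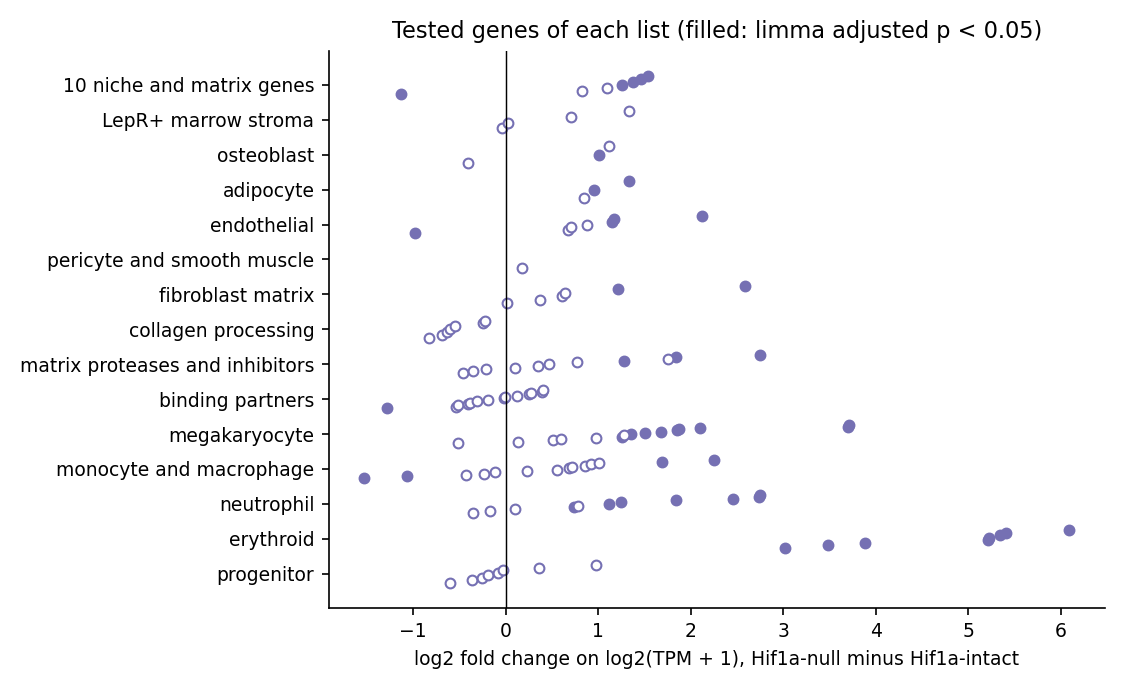
Log2 fold change (horizontal axis, Hif1a-null minus Hif1a-intact on log2(TPM + 1)) of each tested gene by list, filled where limma's adjusted p was under 0.05. The 10 niche and matrix genes have 4 filled points above 0 and Pdgfrb below at -1.13, and erythroid genes lie farthest to the right.

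Leaving out a library changed which of the 10 genes passed. With all 4 libraries 5 of 7 tested were called, against 7.27% of all tested genes. Of the 3 that entered only through the Hif1a-null libraries 2 were called, both higher, against 61.8% of such genes. Of the other 4, 2 were higher, against 2.59%, and 1 was lower. The shares given for the fits below do not separate genes by how they entered. Without Hif1a-intact replicate 1, 5 of 7 were called, against 8.77% of all genes in that fit, and without Hif1a-intact replicate 2, 3 of 7, against 5.98%. Without either Hif1a-null library, 0 of the 4 then tested were called, but in those fits the Hif1a-intact pair alone sets the spread, with 1 residual degree of freedom, and all genes together gave 19 calls (0.169%) without replicate 1 and 0 without replicate 2. Lepr had log2 fold changes of 1.42 and 1.67 in these fits (limma, adjusted p = 0.202 and 0.189) and Pdgfrb of -1.12 and -1.13 (limma, adjusted p = 0.381 and 0.424). Across the marker lists, without Hif1a-null replicate 1 the calls left were 1 megakaryocyte and 3 erythroid genes, and without Hif1a-null replicate 2 there were 0. Without Hif1a-intact replicate 1 and replicate 2 the called genes numbered 2 and 1 adipocyte, 4 and 4 endothelial, 2 and 2 fibroblast matrix, 9 and 7 megakaryocyte, 4 and 6 monocyte and macrophage and 8 and 8 erythroid genes.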

How the data were processed

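RNA came from marrow cells enriched with CD117 microbeads, per the labels' protocols. The authors quantified expression with kallisto and named mm10, per the submitters' processing notes. No version, transcript set or strand setting is given in the sources used here. In the deposited TPM table each library is 1 column and each Ensembl gene 1 row. That it is TPM was read from its values, since its columns sum to between 955562 and 963135. TPM keeps no counts, so no counting interval is given. Coordinates are from GENCODE vM21 (GRCm38), matched by identifier. Symbols are from it as well or, for identifiers it lacks, from a second list of gene names. In all, 27458 of 28987 genes were given a symbol.

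Groups of 2 libraries follow the labelled genotypes, and no batch is named; replicate numbers only name libraries. Groups were compared with limma 3.58.1, run in R 4.3.3 (eBayes, two-sided), on log2(TPM + 1), limited to genes that reached 1 TPM in 2 or more libraries. P-values were adjusted by Benjamini-Hochberg over all tested genes, with a threshold of 0.05. Fold changes on this scale understate low genes. The limma fit was tested on simulated data. The 10 genes, the marker lists and the naming rule (each of the 10 genes, then per list up to 4 called genes of smallest p and the 3 most abundant, with defining markers at or near 0; a few others were named after their values were seen, among them binding partners) were chosen with earlier results of these data known. blastn 2.17.0 against annotated transcripts (95% identity over 50% of the shorter transcript and at least 100 bases) found copies for Lepr (Gm12797, listed at 0), and for Pdgfra and Col3a1 only genes overlapping their own exons. A gene chosen for a marker list was left out of every list and count and is not reported here. Figures were drawn with matplotlib 3.10.9. Alternatives are in the closing section; an unfiltered fit with a pseudocount of 0.1 was added after seeing the data.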

Additional observations from a re-analysis of the deposited data

How the results depend on the processing

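Over all genes 866 were called. The count was 568 without the filter, 493 with a filter of 5 TPM, and 458 without the filter and with a pseudocount of 0.1, and it ran from 0 to 1019 with 1 library left out. Of the 10 genes 5 were called. The count was 2 with a pseudocount of 5, 2 without the filter, 1 with a filter of 5 TPM (where Sparc was the 1 gene tested), 3 with an intensity trend and 1 without the filter and with a pseudocount of 0.1, and it ran from 0 to 5 with 1 library left out. None of the 7 tested genes changed direction in any alternative run. Their non-overlapping groups fix this in advance when a library is left out or the pseudocount is changed. A changed filter or an intensity trend leaves the fold change itself as it was. Only the runs that rescale the values, such as quantile normalization, could have changed the direction. Lepr stayed past the threshold in 10 of 13 alternatives, Fn1 in 10 of 11, Sparc in 8 of 14, Pdgfrb in 7 of 13 and Adipoq in 4 of 11. These totals differ because Fn1 and Adipoq fell under the filter in the fits without a Hif1a-null library. Those fits are included for Lepr, Sparc and Pdgfrb, so the counts do not rank the genes. No paired analysis was possible because the labels give the libraries no shared replicate numbers. Groups of 2 and low TPM limit all of these calls, and depth is unknown.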
